A study of Mus musculus with 24 samples.

Results

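Cadherin and protocadherin genes were taken from a table of RNA levels in 3 mouse libraries by their symbols alone, Cdh followed by a number or any symbol starting with Pcdh. The rule found 94 of the 23947 symbols, 23 cadherins and 71 protocadherins, and used no measured value. The cadherins comprised 18 classical cadherins (5 of type I and 13 of type II) and 5 others. Of the protocadherins, 59 belonged to the gene clusters alpha (15), beta (22) and gamma (22), and 12 lay outside the clusters. The libraries came from CD-1 mice, with no other genotype or treatment named: forebrain at embryonic day E12.5, and lens epithelium and lens fibers at postnatal day P1. They accompany chromatin profiling of the transcription factor Pax6 in the same tissues, which was not analysed here. Each group held 1 library of total RNA, so no difference could be set against a spread between replicates and no test was possible. The labels do not say whether tissue was pooled over animals. Tissue and age cannot be told apart where lens was compared with forebrain.

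Cadherins are calcium-dependent adhesion molecules whose extracellular repeats bind like partners on neighbouring cells. The cytoplasmic tails of classical cadherins bind p120 and beta catenin, and through alpha catenin they reach the actin skeleton. A change from E-cadherin (Cdh1) to N-cadherin (Cdh2) accompanies many steps in which an epithelium gives rise to another tissue. Clustered protocadherins are expressed in combinations that give single neurons a surface identity. The delta protocadherins, outside the clusters, act in cell sorting and axon growth. In the lens, Cdh1 and Cdh2 hold epithelial cells together, and Cdh2 is the main classical cadherin of the elongated fiber cells.

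Levels are RPKM, reads scaled to the length of the gene model and to the size of the library, so levels of different genes can be set side by side within a library. Ratios between libraries are log2((RPKM + 1)/(RPKM + 1)), given for genes that reached 1 RPKM in 1 or both of the libraries compared. A ratio of at least 1 in size, a 2-fold difference on this scale, was counted as higher or lower. A gene that reached 1 RPKM in only 1 of the libraries compared could be counted only as higher in that library. The shares over all genes were counted with the same filter. The added 1 RPKM understates the difference of genes with low levels. Genes listed at 0 in 1 library entered the counts and medians through the added 1 RPKM, and no fold is given for them. Read depth is not given with RPKM. Low values of forebrain and epithelium moved in common steps. Of 980 genes under 0.15 RPKM in both, 93 lay within a bin of width 0.08 at a log2 ratio of 0.60. A window of the same width at 1 less held 62. A single read was thus worth about 1.52 times as much RPKM in forebrain as in epithelium. No such steps could be placed for fiber, and values well under 1 RPKM may rest on few reads in any of the libraries.

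The libraries carried the markers of their labels. All 8 forebrain genes examined were lower in both lens libraries by the 2-fold count, and all 9 fiber genes were higher in fiber than in forebrain, 8 of them also than in epithelium. Foxe3, a transcription factor of the lens epithelium, stood at 19.4 RPKM in epithelium and 0.433 in fiber and was listed at 0 in forebrain. The epithelium library also held transcripts of other cells. Of 8 pigment and ciliary genes, 7 reached 1 RPKM there, with Rpe65 listed at 0. The 8 summed to 119.99 RPKM there, against 5.39 in forebrain and 10.7 in fiber. Most of the forebrain sum was Dct at 4.74 RPKM. Most of the fiber sum was Mitf at 9.57 RPKM, against 7.34 in epithelium. All 12 endothelial genes reached 1 RPKM in epithelium, with sums of 66.4 in forebrain, 181.7 in epithelium and 34.5 in fiber. The fiber sum was almost entirely Egfl7 at 32.6 RPKM, while Cldn5, Emcn, Esam, Eng and Sox17 were listed at 0. Genes of mesenchyme summed to 91.4, 64.5 and 4.14 RPKM, with Col3a1 at 44.6 in forebrain against 1.94 in epithelium. Pdgfra ran the other way and made up most of the epithelium sum, at 2.89 RPKM in forebrain and 52.9 in epithelium. Blood genes summed to 5642, 345.6 and 6.55 RPKM. Most of the forebrain sum was Hbb-y at 4223 RPKM, against 1.995 in epithelium. Hbb-b1 did not follow the sum, at 153.2 RPKM in forebrain and 172.8 in epithelium. In bulk tissue, fewer cells of a type and less RNA per cell cannot be told apart.

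The median ratio over all genes at 1 RPKM or more in both libraries was -0.23 for fiber against forebrain and -0.24 for fiber against epithelium. It was -0.06 for epithelium against forebrain. Rescaling moved the fiber values by between -0.61 and 0.24 on the log2 scale, depending on the genes used, so ratios near 1 that involve fiber are given with their range.

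At least 1 RPKM was reached by 35 of the 94 members in forebrain (37.2%), 41 in epithelium (43.6%) and 7 in fiber (7.45%), while 47.7%, 48.6% and 40.5% of all symbols reached it. Listed at 0 were 5 members in forebrain (30.7% of all symbols), 7 in epithelium (27.5%) and 28 in fiber (37.6%). The highest level lay in forebrain for 45 members, in epithelium for 44 and in fiber for 4, and Cdh26 was listed at 0 in all 3 libraries. No such split was counted over all symbols, here or for the subgroups below. Some of these highest levels lay near 0, such as Cdh16 at 0.0560 RPKM in fiber. The summed RPKM of the cadherins was 68.4 in forebrain, 158.6 in epithelium and 51.4 in fiber, and that of the protocadherins was 87.7, 94.3 and 24.6.

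**Figure D1:**
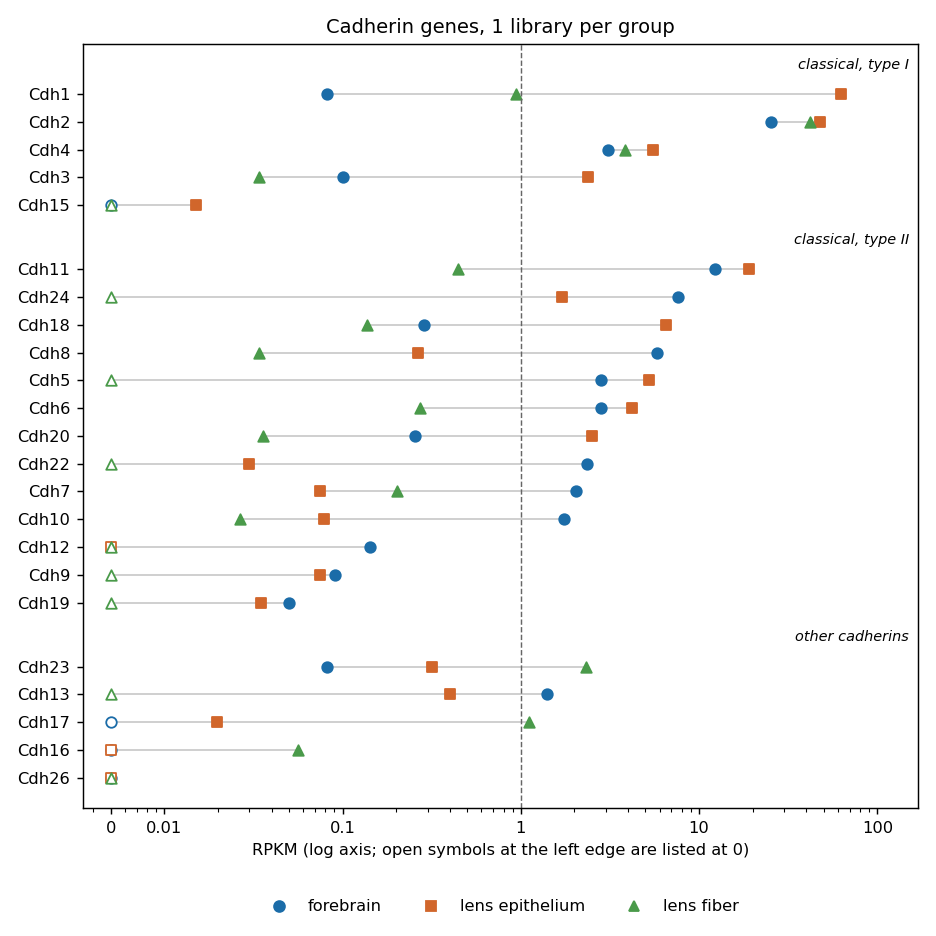
RPKM of the 23 cadherin genes on a log axis, with 1 point per library (circle forebrain, square lens epithelium, triangle lens fiber), open where listed at 0. Only Cdh2, Cdh4, Cdh17 and Cdh23 lay to the right of the dashed line at 1 RPKM in fiber, against 11 genes in forebrain and 10 in epithelium.

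Of the type I classical cadherins, Cdh2 was high everywhere and Cdh1 marked the epithelium. Cdh2 (N-cadherin) stood at 25.5 RPKM in forebrain, 47.8 in epithelium and 42.0 in fiber. It was the highest cadherin of forebrain and fiber and the next after Cdh1 in epithelium. Its ratio was 0.88 for epithelium and 0.70 for fiber against forebrain, under the 2-fold count in both. The 2 lens libraries differed by -0.18 for fiber against epithelium, between -0.76 and 0.05 over the scalings, so no direction is given.

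Cdh1 (E-cadherin), the cadherin of most epithelia, stood at 0.0821 RPKM in forebrain, 62.3 in epithelium and 0.940 in fiber. The level in epithelium was 66.2 times that in fiber, a log2 ratio of -5.03 for fiber against epithelium (-5.29 to -4.91 over the scalings). Within a library the balance of Cdh1 to Cdh2 does not depend on scaling. Cdh1 was 1.30 times Cdh2 in epithelium, while Cdh2 was 44.7 times Cdh1 in fiber and 310.2 times in forebrain. The residual Cdh1 of fiber lay beside Foxe3 at 0.433 RPKM and the epithelial matrix gene Npnt at 1.73 (37.7 in epithelium). Pitx3 and Col4a1 of the same marker list lay within 2-fold between epithelium and fiber. The part of epithelial RNA in the fiber Cdh1 level was not tested.

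Cdh3 (P-cadherin), which is found in basal and pigmented epithelia, stood at 0.101 RPKM in forebrain, 2.40 in epithelium and 0.0339 in fiber, ratios of 1.62 for epithelium against forebrain and -1.72 for fiber against epithelium. It is the direct neighbour of Cdh1 among coding genes, and both were highest in epithelium. The pigment genes Pmel (52.7 RPKM), Dct (24.1) and Tyrp1 (21.2) were high in the same library, and the part of pigmented cells in the Cdh3 level was not tested. Of 8 genes of surface and corneal epithelium none reached 1 RPKM in any library, and Krt5 and Krt12 were listed at 0 in epithelium.

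Cdh4 (R-cadherin), which can pair with N-cadherin, resembled Cdh2 in its spread, with 3.09 RPKM in forebrain, 5.54 in epithelium and 3.83 in fiber. None of its ratios reached the 2-fold count, and that of fiber against forebrain changed sign with the scaling (-0.22 to 0.42). Cdh15, the cadherin of muscle precursors, was at 0.0151 RPKM in epithelium and listed at 0 elsewhere.

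The type II cadherins were a forebrain and epithelium set, and none of the 13 reached 1 RPKM in fiber, where 40.5% of all symbols did. Their summed RPKM was 38.2 in forebrain, 39.9 in epithelium and 1.15 in fiber, where 6 were listed at 0. The near equality of the forebrain and epithelium sums hid different members. Of 10 that passed the filter for epithelium against forebrain, 2 were higher (Cdh18 and Cdh20), beside 13.7% of all genes. Another 5 were lower (Cdh7, Cdh8, Cdh10, Cdh22 and Cdh24), beside 11.9% of all genes. The other 3 lay within 2-fold (Cdh5, Cdh6 and Cdh11). Cdh18 and Cdh20 passed through epithelium alone, and of the lower members only Cdh24 reached 1 RPKM in both libraries.

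Cdh11, a cadherin of mesenchyme that is also found in neural tissue, led the type II genes in both, at 12.2 RPKM in forebrain and 19.1 in epithelium, and was at 0.443 in fiber. Its ratio was -3.80 for fiber against epithelium and -3.19 for fiber against forebrain. Cdh6 was at 2.81, 4.18 and 0.270 RPKM in forebrain, epithelium and fiber. Both genes were thus within 2-fold between forebrain and epithelium and lower in fiber. The mesenchymal genes Col3a1, Dcn and Lum stood at 1.94, 0.259 and 0.0175 RPKM in epithelium, against 44.6, 5.35 and 15.02 in forebrain. Pdgfra and Pdgfrb of the same list were higher in epithelium, at 52.9 and 5.22 RPKM against 2.89 and 2.31 in forebrain, and the part of mesenchymal cells in the Cdh11 level was not tested.

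Cdh5 (VE-cadherin), which joins endothelial cells, was at 2.82 RPKM in forebrain and 5.24 in epithelium and listed at 0 in fiber. It lay beside endothelial genes that ran the same way, such as Kdr at 5.79, 11.4 and 0.0829 RPKM and Pecam1 at 5.83, 10.7 and 0.478. Egfl7 of the same list did not, being higher in fiber than in forebrain, at 17.6, 65.4 and 32.6 RPKM. The part of endothelial cells in the Cdh5 level was not tested.

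Cdh18 and Cdh20, which are best known from the nervous system, were highest in lens epithelium. Cdh18 stood at 0.287 RPKM in forebrain, 6.52 in epithelium and 0.136 in fiber, a ratio of 2.55 for epithelium against forebrain and of -2.73 for fiber against epithelium. Cdh20 stood at 0.255, 2.52 and 0.0357 RPKM, with ratios of 1.49 and -1.76. RefSeq gives Cdh7 as an older name of Cdh20. The table lists both symbols, and Cdh7 was highest in forebrain, with 2.03 RPKM in forebrain, 0.0750 in epithelium and 0.202 in fiber.

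Several type II cadherins pattern brain regions and synapses. Of the type II members lower in epithelium than in forebrain, Cdh24 was the highest in forebrain at 7.59 RPKM. It stood at 1.70 in epithelium and was listed at 0 in fiber. Cdh8 followed at 5.83 RPKM, with 0.266 in epithelium and 0.0341 in fiber, ratios of -2.43 and -2.72 against forebrain. With 1 RPKM added, no other type II gene lay as far below forebrain in epithelium. By plain RPKM, Cdh22 (78.0 times), Cdh7 (27.0) and Cdh10 (22.2) lay further below forebrain than Cdh8 (21.9). Cdh22 stood at 2.34, 0.0300 and 0 RPKM and Cdh10 at 1.76, 0.0792 and 0.0268. Cdh9, Cdh12 and Cdh19 stayed under 0.15 RPKM in every library.

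Some neighbouring members had their highest level in the same library, such as Cdh3 and Cdh1 or Pcdh10 and Pcdh18, and others did not. In the gene order of RefSeq on GRCm38.p6, used for names only, Cdh8, Cdh11 and Cdh5 follow each other with no other coding gene between them. Cdh8 was 21.9 times higher in forebrain than in epithelium, while Cdh11 and Cdh5 were higher in epithelium by 1.57 and 1.86 times. The run Cdh6, Cdh9, Cdh10, Cdh12, with Cdh18 beyond 1 further coding gene, held members highest in epithelium at its ends (Cdh6 and Cdh18) and members highest in forebrain between them.

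The other cadherins held the members that were highest in fiber. Cdh23, known from the tip links of hair cells and from photoreceptors, stood at 0.0816 RPKM in forebrain, 0.318 in epithelium and 2.32 in fiber. The ratio was 1.62 for fiber against forebrain and 1.33 for fiber against epithelium (0.94 to 1.5 over the scalings). Its tip link partner Pcdh15 was at 0.441 and 0.148 RPKM in forebrain and epithelium and listed at 0 in fiber.

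Cdh17, an intestinal and liver cadherin that lacks the catenin-binding tail, was listed at 0 in forebrain and stood at 0.0197 RPKM in epithelium and 1.12 in fiber. Its log2 ratio of 1.05 for fiber against epithelium lay between 0.77 and 1.18 over the scalings, and its level is close to the 1 RPKM filter. Cdh16, a kidney cadherin of the same type, was at 0.0560 RPKM in fiber and listed at 0 in the other 2 libraries. Cdh13 (T-cadherin), which is held in the membrane by a lipid anchor, stood at 1.41 RPKM in forebrain and 0.401 in epithelium and was listed at 0 in fiber.

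Counted over the 23 cadherins, 15 passed the filter for epithelium against forebrain, of which 4 were higher (13.7% of all genes) and 5 lower (11.9% of all genes). The 4 higher passed through epithelium alone, and the 5 lower through forebrain alone apart from Cdh24. For fiber against forebrain 13 passed, with 2 higher (15.9% of all genes) and 9 lower (31.6%). Of these, Cdh17 was listed at 0 in forebrain and 4 of the 9 at 0 in fiber. All 9 passed through forebrain alone and the 2 higher ones through fiber alone, so the filter fixed their directions. For fiber against epithelium 12 passed, with 2 higher (11.4% of all genes) and 8 lower (28.3%), 2 of them listed at 0. Here too the 8 lower passed through epithelium alone and the 2 higher through fiber alone. The median ratios over the members that passed were 0.61, -1.42 and -1.74, beside -0.03, -0.41 and -0.42 over all genes. With a scaling on the summed RPKM of genes that are not crystallins, the higher counts became 1 for fiber against forebrain and 0 for fiber against epithelium, and the lower counts stayed at 9 and 8.

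**Figure D2:**
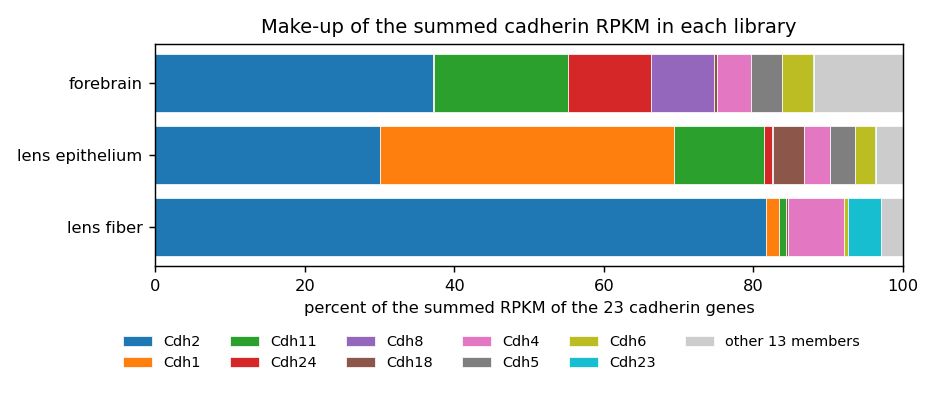
Percent of the summed RPKM of the 23 cadherin genes taken by each of 10 genes and by the other members together, in each library. Cdh2 took 37.2% in forebrain, 30.1% in epithelium and 81.6% in fiber, and Cdh1 took 39.3% in epithelium.

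The make-up of the cadherin sum is free of the scaling between libraries. Cdh2 took 37.2% of it in forebrain, 30.1% in epithelium and 81.6% in fiber, and Cdh2 with Cdh4 took 89.1% in fiber. Cdh1 took 0.120%, 39.3% and 1.83%. The 3 highest members together took 66.1% in forebrain (Cdh2, Cdh11 and Cdh24), 81.5% in epithelium (Cdh1, Cdh2 and Cdh11) and 93.6% in fiber (Cdh2, Cdh4 and Cdh23). Forebrain thus had the most even mix of the 3 libraries and fiber the least.

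Of the 12 protocadherins outside the clusters, 8 were highest in forebrain and 4 in epithelium (Pcdh1, Pcdh7, Pcdh12 and Pcdh20). In epithelium against forebrain 8 passed the filter, of which 1 was higher (13.7% of all genes) and 4 were lower (11.9%). For fiber against forebrain 8 passed, with 0 higher (15.9% of all genes) and 6 lower (31.6%), 3 of the 6 being listed at 0 in fiber. All 6 passed through forebrain alone, so the filter fixed their direction. For fiber against epithelium 7 passed, with 1 higher (Pcdh17; 11.4% of all genes) and 5 lower (28.3%). Pcdh17 passed through fiber alone, and of the 5 only Pcdh7 reached 1 RPKM in both libraries. Their sum was 45.2 RPKM in forebrain, 37.0 in epithelium and 7.95 in fiber, and Pcdh7 alone made up 10.3%, 58.4% and 69.4% of it.

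Pcdh7, a delta-1 protocadherin with adhesive activity in ectoderm and retinal axons, stood at 4.63 RPKM in forebrain, 21.6 in epithelium and 5.52 in fiber. Epithelium was the high library, with ratios of 2.0 against forebrain and -1.79 for fiber against epithelium. The direction between fiber and forebrain changed with the scaling (-0.28 to 0.41). Pcdh9, of the same subfamily, ran the other way, at 7.32, 1.11 and 0.10 RPKM, with ratios of -1.98 for epithelium and -2.92 for fiber against forebrain. Pcdh11x was at 0.941, 0.192 and 0.0207 RPKM and Pcdh1 at 0.810, 0.997 and 0.0435, all under 1 RPKM.

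All 5 delta-2 protocadherins were highest in forebrain, and their sum was 29.3 RPKM there, 10.6 in epithelium and 2.19 in fiber. Pcdh18 stood at 10.1, 4.76 and 0.115 RPKM in forebrain, epithelium and fiber. Pcdh10 (OL-protocadherin), which guides forebrain axons, stood at 8.72 and 1.03 RPKM in forebrain and epithelium, a ratio of -2.26, and was listed at 0 in fiber. Pcdh19, known from an epilepsy of girls, stood at 6.12, 4.53 and 0.115 RPKM. Between forebrain and epithelium Pcdh19 lay within 2-fold (-0.37) and Pcdh18 close to it, at -0.95, or -1.07 with 0.1 RPKM added. For fiber against epithelium their ratios were -2.31 and -2.37. Pcdh8, a protocadherin of segmenting mesoderm and synapses, followed Pcdh10 at 2.22 and 0.0815 RPKM with 0 listed in fiber.

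Pcdh17, which acts in presynaptic assembly and axon extension, was low in epithelium only, at 2.14 RPKM in forebrain, 0.241 in epithelium and 1.96 in fiber. The ratio was -1.34 for epithelium against forebrain, 1.25 for fiber against epithelium (0.89 to 1.41 over the scalings) and -0.09 for fiber against forebrain, whose sign changed with the scaling (-0.46 to 0.07). Of the remaining members, Pcdh12, an endothelial protocadherin, ran with Cdh5 at 1.15 and 1.59 RPKM and 0 listed in fiber. Pcdh20 stayed at 0.564, 0.699 and 0.0796 RPKM.

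**Figure D3:**
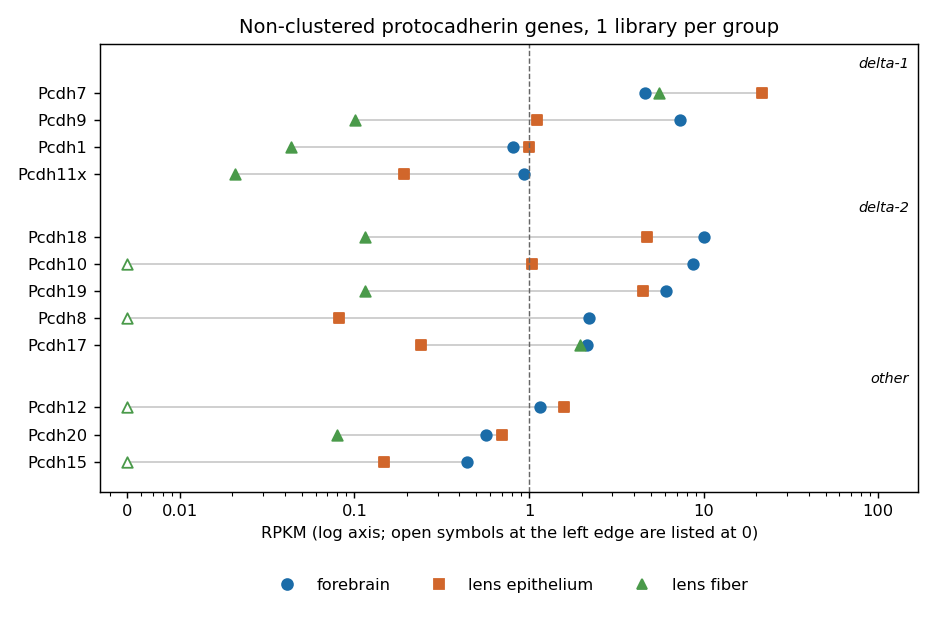
RPKM of the 12 protocadherins outside the clusters on a log axis, with symbols as for the cadherins and a dashed line at 1 RPKM. In fiber only Pcdh7 and Pcdh17 lay above 1 RPKM, and all 5 delta-2 members were highest in forebrain.

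Promoter sequences from RefSeq on GRCm38.p6, which run from 250 bases before to 50 after a start, matched 22 of the 94 members in 25 windows. The 4 below are shown as examples of genes highest in each library: Cdh8 and Pcdh10 were high in forebrain, Pcdh7 in epithelium and Cdh23 in fiber. They are written 5′ to 3′ on the gene's strand, and capitals mark each CG dinucleotide. The positions are chr8:99416422-99416721 on the minus strand for Cdh8, chr3:45378148-45378447 on the plus strand for Pcdh10, chr5:57717831-57718130 on the plus strand for Pcdh7 and chr10:60696441-60696740 on the minus strand for Cdh23.
Cdh8: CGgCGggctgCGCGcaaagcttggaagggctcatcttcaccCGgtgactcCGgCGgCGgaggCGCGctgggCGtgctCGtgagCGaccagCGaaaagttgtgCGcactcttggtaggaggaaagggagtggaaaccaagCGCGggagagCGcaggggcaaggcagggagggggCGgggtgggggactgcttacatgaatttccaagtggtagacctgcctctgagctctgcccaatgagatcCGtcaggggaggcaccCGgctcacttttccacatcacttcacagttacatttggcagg
Pcdh10: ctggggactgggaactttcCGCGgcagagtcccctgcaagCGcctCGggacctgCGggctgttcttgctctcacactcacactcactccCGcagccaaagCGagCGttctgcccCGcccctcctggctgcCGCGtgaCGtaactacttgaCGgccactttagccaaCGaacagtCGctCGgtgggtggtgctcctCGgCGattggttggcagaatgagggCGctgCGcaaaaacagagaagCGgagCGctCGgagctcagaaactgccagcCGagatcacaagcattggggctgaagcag
Pcdh7: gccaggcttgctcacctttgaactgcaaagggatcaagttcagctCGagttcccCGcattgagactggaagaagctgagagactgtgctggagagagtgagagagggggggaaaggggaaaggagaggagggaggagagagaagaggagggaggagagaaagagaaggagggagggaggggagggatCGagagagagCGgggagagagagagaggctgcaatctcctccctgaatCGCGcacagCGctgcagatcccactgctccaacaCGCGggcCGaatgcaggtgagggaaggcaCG
Cdh23: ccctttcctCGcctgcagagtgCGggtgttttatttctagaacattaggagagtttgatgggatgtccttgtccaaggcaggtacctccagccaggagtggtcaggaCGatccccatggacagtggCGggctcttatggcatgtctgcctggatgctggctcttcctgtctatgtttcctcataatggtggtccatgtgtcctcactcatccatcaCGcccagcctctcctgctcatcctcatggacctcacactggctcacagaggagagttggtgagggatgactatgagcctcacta

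The windows held 21 CG in Cdh8, 24 in Pcdh10, 11 in Pcdh7 and 5 in Cdh23. CG reads the same on both strands, and the median over all 32851 windows of the table was 7. As many or more CG were found in 24.8% of all windows for Cdh8, 20% for Pcdh10, 41.4% for Pcdh7 and 62% for Cdh23. Over the members with at least 1 RPKM, the median was 19 in the 14 windows of 11 genes that were highest in forebrain, with a range from 2 (Cdh10) to 38 (Cdh22), and 11.5 in the 4 windows of genes highest in epithelium. The E-box CACCTG, searched on both strands as CACCTG or CAGGTG, is bound by Snail and Zeb repressors. It was present in 5 of the 25 windows (20%), those of Cdh7, Pcdh7 and Pcdh15, against 20.2% of all windows. Cdh7 had several windows, and by gene the count was 3 of 22, against 6098 of 27025. Cdh1, Cdh2, Cdh3 and Cdh11 were among the members without a window, so the E-box was not searched there. The starts used by these libraries were not analysed here.

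The clusters of protocadherins differed from each other in where they were expressed. Alpha genes were a low forebrain set, beta genes were highest in epithelium, and gamma genes were alike in forebrain and epithelium. Each alpha or gamma transcript joins a variable exon of its own to constant exons that the cluster shares, and beta genes are close copies of each other, so the split of reads between members of a cluster is uncertain. All clustered genes lie in a row on 1 chromosome and are not independent of each other.

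In the alpha cluster none of the 15 members reached 1 RPKM in any library. All 15 were above 0 in forebrain and all were highest there, with a sum of 3.95 RPKM against 0.377 in epithelium and 0.366 in fiber, and 4 and 12 members were listed at 0 in these. All 11 members above 0 in both forebrain and epithelium were at least 2 times lower in epithelium by plain RPKM, beside 17.7% of all such genes. The forebrain sum was 10.5 times that of epithelium and 10.8 times that of fiber. Pcdhac2, 1 of the 2 C-type members of the cluster, was the highest in each library, at 0.545, 0.101 and 0.304 RPKM, and took 83.1% of the fiber sum. In forebrain it was followed by Pcdha9 at 0.381 and Pcdha7 at 0.377 RPKM, in epithelium by Pcdha11 at 0.0442 and Pcdha5 at 0.0365, and in fiber by Pcdha10 at 0.0318 and Pcdha11 at 0.0302.

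In the beta cluster 21 of the 22 members were higher in epithelium than in forebrain, where 51.4% of all genes above 0 in either library were higher. Each of the 4 scalings gave a count of 21. Of the 21 members above 0 in both, 15 were at least 2 times higher by plain RPKM and none was at least 2 times lower, beside 20.5% and 17.7% of all such genes, and the median ratio was 2.76. With 1 RPKM added, 5 of the 12 that passed the filter were higher (13.7% of all genes). All 12 reached 1 RPKM in epithelium but only 2 did in forebrain, so most could be counted only as higher. The sum was 10.9 RPKM in forebrain, 31.6 in epithelium and 7.27 in fiber. Pcdhb17 led in every library, at 1.86, 4.88 and 1.67 RPKM, followed by Pcdhb22 at 1.15, 4.0 and 0.980. The next were Pcdhb20 in forebrain and epithelium (0.932 and 2.57 RPKM) and Pcdhb14 in fiber, with 0.810 RPKM against 0.247 in forebrain and 2.29 in epithelium. Pcdhb5 alone was lower in epithelium, at 0.240 against 0.259 RPKM. Between fiber and epithelium 21 of 22 were lower in fiber (68% of all genes above 0 in either), and 18 of the 19 above 0 in both were at least 2 times lower (36%). Against forebrain 3 of 19 were at least 2 times higher in fiber (19.6%) and 7 at least 2 times lower (36.7%). Only Pcdhb12 was not lower in fiber than in epithelium, at 0.467 against 0.451 RPKM, and with both scalings that leave out crystallins all 22 were lower in fiber.

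In the gamma cluster 14 members in forebrain and 13 in epithelium reached 1 RPKM, and none did in fiber. The sums were 27.7 and 25.4 RPKM in forebrain and epithelium and 8.98 in fiber. Between forebrain and epithelium 10 members were higher and 12 lower in epithelium, none of the 16 that passed the filter differed 2-fold, and the median plain ratio was 0.94. When crystallins were left out of the scaling the split was 11 and 11. All 22 were lower in fiber than in epithelium and all 22 lower than in forebrain (63.6% of all genes), of which 1 was above forebrain when ratios were centred on the median of all genes. The C-type member Pcdhgc3 was highest in forebrain and epithelium, at 4.64 and 4.29 RPKM, and stood at 0.989 in fiber, next to Pcdhga7 at 0.995 and Pcdhga6 at 0.876. Pcdhga11 (2.26 and 1.60 RPKM in forebrain and epithelium) came next after Pcdhgc3 in both, followed by Pcdhgb6 in forebrain (1.88) and Pcdhgb2 in epithelium (1.42). The 2 other C-type genes were lower in epithelium than in forebrain, with Pcdhgc4 at 1.03 and 0.364 RPKM and Pcdhgc5 at 0.383 and 0.164.

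**Figure D4:**
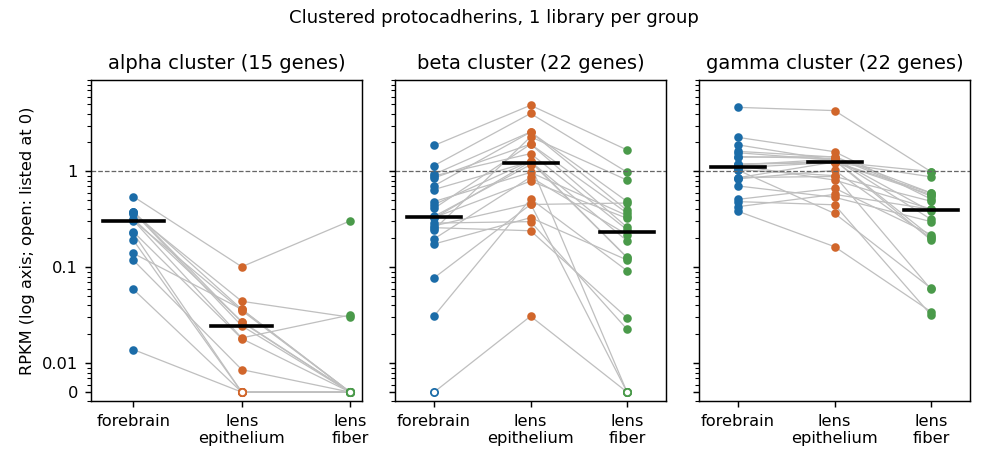
RPKM of the 59 clustered protocadherins on a log axis in forebrain, lens epithelium and lens fiber, with 1 line per gene, open points where listed at 0 and a black bar at the median where it is above 0. Alpha members were highest in forebrain, beta members had a median of 0.335 RPKM in forebrain and 1.21 in epithelium, and gamma medians were 1.12 and 1.24.

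Within the summed RPKM of all clustered genes, which does not depend on scaling, alpha took 9.29% in forebrain, 0.658% in epithelium and 2.20% in fiber. Beta took 25.7%, 55.1% and 43.8%, and gamma 65.0%, 44.2% and 54.0%. Members kept much of their order between forebrain and epithelium, with a Spearman correlation of 0.88 over the 22 gamma, 0.81 over the 22 beta and 0.69 over the 15 alpha genes. These are descriptions across genes that share sequence and libraries.

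Over all 71 protocadherins, 36 passed the filter for epithelium against forebrain, with 6 higher (13.7% of all genes) and 4 lower (11.9%). For fiber against forebrain 24 passed, with 0 higher (15.9% of all genes) and 10 lower (31.6%). All 10 passed through forebrain alone. For fiber against epithelium 32 passed, with 1 higher (11.4%) and 16 lower (28.3%). Of the 16, only Pcdh7 and Pcdhb17 reached 1 RPKM in both libraries. The median ratios were 0.07, -0.87 and -0.98, beside -0.03, -0.41 and -0.42 over all genes. The summed cadherin RPKM was 0.780 times the summed protocadherin RPKM in forebrain, 1.68 times in epithelium and 2.09 times in fiber.

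**Figure D5:**
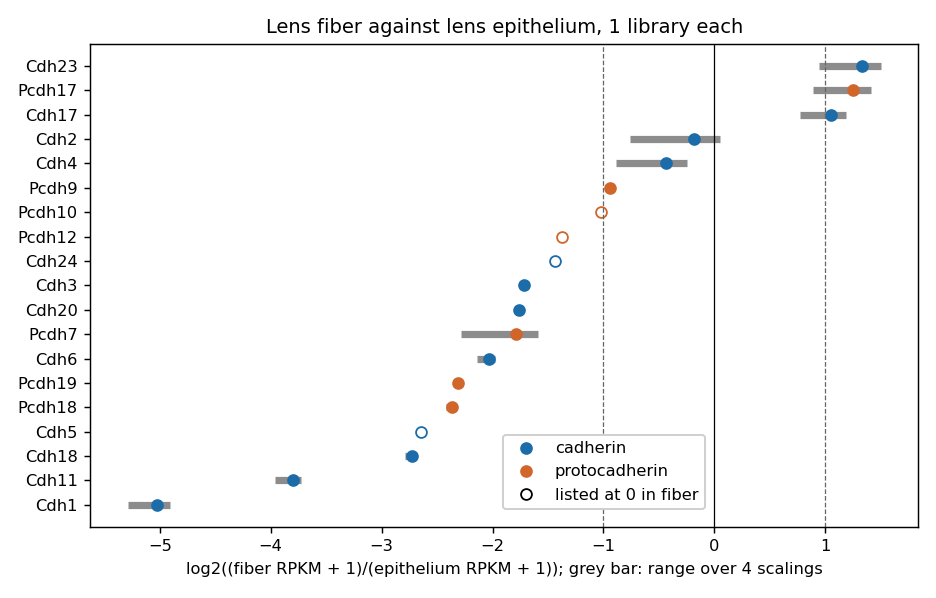
Log2((RPKM + 1)/(RPKM + 1)) of lens fiber over lens epithelium for the 19 members outside the clusters with at least 1 RPKM in either library, with grey bars over 4 scalings, dashed lines at 2-fold and open points where listed at 0 in fiber. Cdh1 lies lowest at -5.03 and Cdh23 highest at 1.33, and the bars of Cdh23, Pcdh17 and Cdh17 cross the 2-fold line.

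The genes that act with cadherins are given by lists, with the share of all genes counted the same way in parentheses. Catenins bind the cadherin tails, and 7 of 8 catenin genes passed the filter in each comparison. In epithelium against forebrain 1 was higher (13.7% of all genes) and 1 lower (11.9%), in fiber against forebrain 3 were higher (15.9%) and none lower (31.6%), and in fiber against epithelium 1 was higher (11.4%) and 1 lower (28.3%). Jup and Ctnnd1 had the order of the cadherin sum, highest in epithelium and lowest in fiber, and Ctnnb1 and Ctnna1 did not. Ctnnb1 (beta catenin) was abundant throughout, at 373.6 RPKM in forebrain, 283.0 in epithelium and 355.6 in fiber. Ctnna1, the alpha catenin of epithelia, stood at 36.5, 38.6 and 54.7 RPKM and Ctnnd1 (p120) at 10.8, 15.1 and 7.41.

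Ctnna2, the alpha catenin of neurons, had the widest range of the catenins. It stood at 24.2 RPKM in forebrain, 1.49 in epithelium and 55.9 in fiber, ratios of -3.34 for epithelium against forebrain and 4.51 for fiber against epithelium. Within a library, Ctnna1 was 25.9 times Ctnna2 in epithelium, while Ctnna2 was 1.02 times Ctnna1 in fiber and 0.661 times in forebrain. The neuronal genes Tubb3, Dcx and Neurog2 stood at 4.04, 0.00634 and 0.106 RPKM in fiber, against 460.6, 33.3 and 43.4 in forebrain. Ctnnal1 (alpha-catulin), an alpha catenin relative, was higher in both lens libraries, at 6.07 RPKM in forebrain, 20.8 in epithelium and 17.8 in fiber. Ctnnd2, a neuronal p120 relative, was at 5.06, 10.7 and 12.7 RPKM, and Jup (plakoglobin) at 1.66, 2.25 and 0.342.

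Among 15 partners of adherens junctions, 3 of the 14 that passed were higher (13.7% of all genes) and none lower (11.9%) in epithelium than in forebrain. Of the 15 that passed against forebrain in fiber, 4 were higher (15.9%) and 1 lower (31.6%). Between fiber and epithelium 3 of 15 were higher (11.4%) and 4 lower (28.3%) in fiber. Arvcf, a p120 relative, stood at 31.8, 75.8 and 224.9 RPKM in forebrain, epithelium and fiber. Tjp1 (ZO-1), a scaffold of tight and adherens junctions, stood at 9.72, 15.9 and 92.1 RPKM. Pvrl3 (nectin-3) was high in epithelium, at 19.8, 103.7 and 24.1 RPKM, and Pvrl4 (nectin-4) in fiber, at 0.0532, 0.580 and 4.45.

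Desmosome genes were nearly absent from forebrain, where none of 14 reached 1 RPKM (47.7% of all symbols). In epithelium 4 did (48.6% of all symbols) and in fiber 3 (40.5%). Against forebrain the filter could be passed only through the lens library, so no 2-fold counts are given. Between fiber and epithelium 4 passed, with 2 higher (11.4% of all genes) and 1 lower (28.3%) in fiber. The desmosomal cadherins were low apart from Dsc2, at 0.144 RPKM in forebrain, 3.90 in epithelium and 1.94 in fiber. The plaque genes Ppl (periplakin) and Pkp2 were highest in fiber, at 27.0 and 21.7 RPKM against 9.61 and 3.77 in epithelium. Pkp1 was an epithelium gene, at 1.93 RPKM against 0.0537 in fiber. Dsp (desmoplakin) was low throughout and highest in forebrain, at 0.451 RPKM against 0.0246 in epithelium and 0.130 in fiber.

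Of 16 giant and related cadherins (18 were listed, and Dchs2 and Cdhr4 were not analysed here), 10 passed for epithelium against forebrain, with 3 higher (13.7% of all genes) and 2 lower (11.9%). For fiber against forebrain 11 passed, with 3 higher (15.9%) and 3 lower (31.6%), and for fiber against epithelium 10 passed, with 1 higher (11.4%) and 4 lower (28.3%). Fat1, a giant cadherin of epithelial junctions, was highest in epithelium at 68.3 RPKM, against 11.3 in forebrain and 20.5 in fiber. Dchs1, the partner of Fat4, was at 8.34, 2.70 and 0.395 RPKM, and Celsr3, which directs axon tracts, at 4.05, 0.0992 and 0.104. Clstn3 (calsyntenin-3) was at 4.74 and 2.29 RPKM and listed at 0 in fiber.

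Regulators of Cdh1 in epithelial to mesenchymal change came from a list of 17. In epithelium against forebrain 7 passed, with 1 higher (13.7% of all genes) and 1 lower (11.9%). In fiber against forebrain 7 passed, with 1 higher (15.9%) and 4 lower (31.6%), and in fiber against epithelium 5 passed, with 0 higher (11.4%) and 2 lower (28.3%). The repressors Zeb1 and Zeb2 were present in all libraries, at 13.1, 7.13 and 6.93 RPKM and at 12.4, 15.6 and 11.1 in forebrain, epithelium and fiber. Snai1 and Snai2 stayed under 1 RPKM, at 0.10 and 0.511 in epithelium. Of the epithelial regulators on the list, Grhl1 was at 0.0882, 2.91 and 1.82 RPKM and Grhl3 at 0.381, 0.0139 and 0.751. Grhl2, Esrp1 and Ovol2 were under 0.1 in every library. The bHLH genes Tcf4 (40.8, 11.5 and 3.34 RPKM) and Tcf3 (37.5, 22.2 and 10.2) and Twist1 (2.02, 0.618 and 0.119) were lower in fiber than in forebrain.

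Of 13 enzymes that cut cadherins, 10 passed in epithelium against forebrain, with 4 higher (13.7% of all genes) and 0 lower (11.9%). In fiber against forebrain 11 passed, with 5 higher (15.9%) and 2 lower (31.6%), and in fiber against epithelium 11 passed, with 2 higher (11.4%) and 4 lower (28.3%). Adam10, the main sheddase of Cdh1 and Cdh2, stood at 6.48, 9.65 and 19.0 RPKM in forebrain, epithelium and fiber. Adam9 stood at 8.20, 19.3 and 67.6, and Psen2, a gamma-secretase subunit, at 1.42, 12.4 and 6.29. Of the matrix proteases, Mmp14 was at 10.6, 14.7 and 0.334 RPKM and Mmp2 at 2.03 and 3.56 with 0 listed in fiber, while Mmp9 was highest in fiber at 0.412 RPKM and Mmp7 was listed at 0 in all 3 libraries.

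Of 15 genes that control the protocadherin clusters through looping, methylation or silencing (16 were listed, Wapl being present under its older name Wapal), all 15 passed in each comparison. In epithelium 1 was higher (13.7% of all genes) and none lower (11.9%) than in forebrain, 8 were lower in fiber than in forebrain (31.6%) and 6 lower in fiber than in epithelium (28.3%), with none higher in fiber (15.9% and 11.4%). Ctcf, which loops enhancers to protocadherin promoters, stood at 17.7, 12.7 and 5.11 RPKM in forebrain, epithelium and fiber, and the cohesin subunit Rad21 at 29.0, 17.2 and 5.44. Smchd1, a repressor of clustered protocadherins, stood at 23.4, 14.2 and 3.28 RPKM, and Dnmt1 at 46.1, 24.8 and 9.87. Among 12 effectors of protocadherin signalling, 1 of 11 that passed was higher (13.7% of all genes) and none lower (11.9%) in epithelium than in forebrain. In fiber 1 of 11 was higher (15.9%) and 2 lower (31.6%) than in forebrain, and 1 of 10 higher (11.4%) and 2 lower (28.3%) than in epithelium. Fzd7, a frizzled receptor, was at 4.08, 13.8 and 0.766 RPKM, the kinase Fyn at 20.6, 9.81 and 3.89, and Abi2, of the WAVE complex that delta-2 protocadherins recruit, at 15.9, 18.4 and 48.6.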

How the data were processed

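RNA levels were read from 1 deposited table of RPKM values for 23947 gene symbols in 3 libraries, 1 per group. Per the labels' protocols, the authors made directional libraries from total RNA. The submitters' processing notes name TopHat2, Cufflinks 2 and Cuffdiff and the mm9 build, and the authors deposited RPKM with no counts or library totals. The gene annotation and the treatment of reads that fit several genes are not stated in the labels or the table, and the depth is unknown beyond the ratio of forebrain to epithelium. The 13 peak and island lists of the series were not analysed here, since no mm9 annotation was used.

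Ratios were computed from the RPKM as deposited, with 1 RPKM added, for genes at 1 RPKM or more in either library compared, and counted from 2-fold. Alternatives were a pseudocount of 0.1 RPKM, no filter, a filter of 5 RPKM, a fold of 4, a level of 0.5 RPKM for clustered genes, and 3 rescalings. The rescaling to protein-coding genes that are not crystallins was chosen after seeing the data. The ratio code was tested on simulated data. Python 3.11.15, pandas 2.3.3, NumPy 2.4.6, SciPy 1.17.1 and matplotlib 3.10.9 were used, and RefSeq tables on GRCm38.p6 gave names, gene order and promoters.

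Members and gene lists were chosen with earlier results of these data known. All cadherins and all protocadherins outside the clusters that reached 1 RPKM are named, with the 3 highest of each cluster per library, and up to 4 genes of each pathway list with the largest ratios. Other named genes, among them the members under 1 RPKM, Pcdhb5, Pcdhb12, Pcdhgc4, Pcdhgc5 and most cell type markers, were chosen after their values were seen.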

Additional observations from a re-analysis of the deposited data

How the results depend on the processing

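Counts for epithelium against forebrain changed their balance with the setting, from 4 higher and 5 lower cadherins and 6 and 4 protocadherins. Shares over all genes were not computed at the other settings, so these counts show only how the members moved. At 5 RPKM, 8 cadherins and 5 protocadherins passed for epithelium against forebrain, and 4 and 5 for fiber against forebrain. With a filter of 5 RPKM, cadherins gave 2 higher and 2 lower for epithelium against forebrain, 0 and 3 for fiber against forebrain and 0 and 4 for fiber against epithelium, and protocadherins gave 1 and 2, 0 and 4, and 0 and 1. With a fold of 4, cadherins gave 2 and 1, 0 and 3, and 0 and 5, and protocadherins 1 and 1, 0 and 4, and 0 and 2. With a pseudocount of 0.1 RPKM, protocadherins gave 11 higher for epithelium against forebrain and 17 lower for fiber against forebrain and 27 for fiber against epithelium, and 6 lower for epithelium against forebrain. With either scaling that left out crystallins, the higher counts were 1 for cadherins in fiber against forebrain and 0 for both families in fiber against epithelium. Cdh17, Cdh23 and Pcdh17 then fell short of 2-fold. At a level of 0.5 RPKM, 27 clustered genes in forebrain, 35 in epithelium and 11 in fiber passed, against 16, 25 and 1 at 1 RPKM.

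With 1 library per group leaving out a replicate was not possible and no spread is known. No paired analysis was possible because each RNA group holds 1 library, and shared replicate numbers occur only among chromatin libraries. Depth is not recorded, so values well under 1 RPKM cannot be given an error. Clustered genes share exons or sequence, and how reads were divided between them is not stated.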
